A study of Mus musculus with 9 samples.

Results

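Podocytes are the epithelial cells that wrap the capillaries of the kidney glomerulus, and 9 genes of these cells were followed in RNA of newborn Glis3zf/zf and wild-type (WT) mice: Nphs1, Wt1, Podxl, Synpo, Ptpro, Cd2ap, Tcf21, Actn4 and Lmx1b. They were found by name among the non-control probes of the 2 arrays that hold postnatal day 3 (PND3) RNA. The 9 genes had 14 of the 41174 probes and were 9 of 28786 gene names on the array. Glis3 is a Krüppel-like zinc finger protein that binds DNA, and the series set pancreas RNA of its mutant against WT. The Glis3zf/zf pool held RNA of 2 C57BL/6 pups labelled Glis3 mutant, and the WT pool held RNA of 2 C57BL/6 pups. Both pools came from PND3 tissue labelled pancreas and were hybridised together on both arrays with the Cy3 and Cy5 dyes exchanged. The array that carried Glis3zf/zf RNA in Cy3 is called the mutant-Cy3 array and the other the mutant-Cy5 array. The arrays are therefore a technical pair of 1 pool per genotype, the difference between mice of 1 genotype was not measured, and no p-value is given. The 7 arrays of embryonic day 15.5 are not analysed here, because their probe sets were not paired with gene names.

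In a podocyte, neighbouring foot processes are joined by the slit diaphragm, a thin cell junction built on nephrin that serves as the last layer of the blood filter. Adaptor and actin-binding proteins tie this junction to the cytoskeleton of the foot process, and a small set of transcription factors keeps the cell in its mature state. Several of the 9 genes are also used elsewhere: Wt1 in mesothelium and gonad, Tcf21 in mesenchyme, Podxl in endothelium, and Actn4 and Cd2ap in many cell types.

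Each Agilent probe is a 60-base oligonucleotide, and a gene's values are those of the sequence its probes carry. The probes shown for Nphs1, Tcf21 and Lmx1b are each the only probe of their gene. Wt1 and Actn4 also have only 1 probe each, not shown because a stop codon interrupts each of its forward reading frames. The dimmer probe of Ptpro is shown because it gave a far lower signal than the other probe of that gene. They are written 5′ to 3′ as in the scanner files, with no base singled out.
Nphs1: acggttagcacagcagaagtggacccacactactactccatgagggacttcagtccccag
Tcf21: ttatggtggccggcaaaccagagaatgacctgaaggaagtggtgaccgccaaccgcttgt
Lmx1b: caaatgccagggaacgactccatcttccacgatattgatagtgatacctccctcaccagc
Ptpro: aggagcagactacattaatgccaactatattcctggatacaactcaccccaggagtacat

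All 9 genes were detected in both pools, and none was far apart between them. Of the 14 probes, 13 were well above background for each pool and array, so each gene was read in both genotypes. None of the 9 genes was 2-fold or more apart with the same sign on each array, where 0.191% of all 20915 measured genes were (0.0335% higher and 0.158% lower in the Glis3zf/zf pool). At 1.5-fold the count was again 0 of 9, against 0.885% of all genes (0.258% higher and 0.626% lower). With so few genes past either fold on the whole array, a count of 0 is close to that background. The mean log2 ratios of Glis3zf/zf over WT lay between -0.01 for Ptpro and 0.21 for Synpo, with a median of 0.08, where the median of all measured genes was -0.01. All 9 lay inside the range from -0.31 to 0.29 that holds the central 90% of measured genes. The arrays gave the same sign for 6 of the 9 genes, against 68.7% of all genes. Both put the Glis3zf/zf pool higher for these 6, against 30.9% of all genes, and lower for 0 of 9, against 37.8%. This split depends on the dye normalization. With median centring in place of loess, where all genes together had a median of -0.11, the Glis3zf/zf pool was higher on both arrays for 1 gene (Lmx1b), against 19.2% of all genes. It was lower for 3 (Wt1, Cd2ap and Actn4), against 54.4% of all genes, and the median of the 9 was also -0.11. Since fewer podocytes and less RNA per podocyte cannot be told apart in such pools, each value below is an amount in the whole tissue piece.

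**Figure D1:**
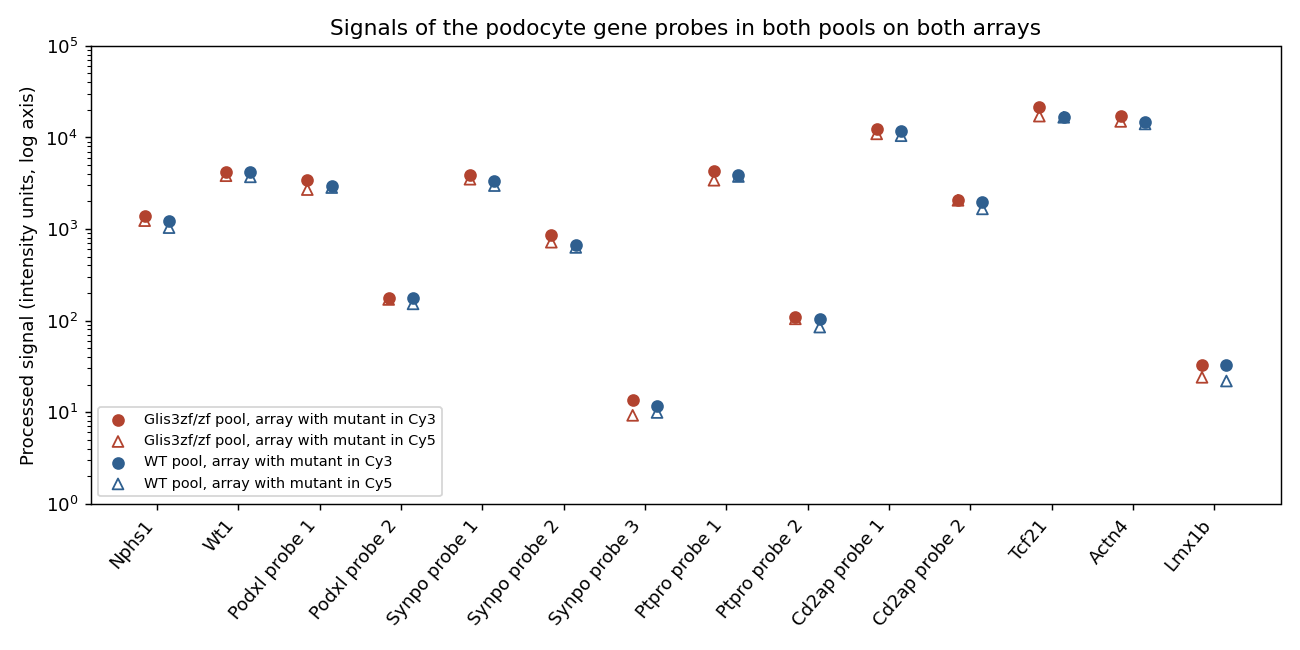
Processed signal of each podocyte gene probe (intensity units, log axis) in the Glis3zf/zf pool (red) and the WT pool (blue), circles for the mutant-Cy3 array and triangles for the mutant-Cy5 array; probes of a gene are numbered from the brightest. Red and blue points lie close together for every probe, and of the 3 Synpo probes the dimmest stays near 10 units.

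Nphs1 encodes nephrin, the adhesion protein that spans the slit diaphragm. Its probe gave processed signals of 1404 and 1236 in the Glis3zf/zf pool on the mutant-Cy3 and mutant-Cy5 arrays, against 1229 and 1036 in the WT pool. The Glis3zf/zf pool was the brighter one on each array, although its signal on the second array only just passed the WT signal on the first. The log2 ratio was 0.19 and 0.21 on these arrays, a mean of 0.20 or 1.15-fold. Cd2ap encodes an adaptor that links nephrin to the actin cytoskeleton. Its brighter probe gave 12446 and 10956 in the Glis3zf/zf pool, against 11703 and 10457 in the WT pool, with log2 ratios of 0.16 and -0.00 that averaged 0.08. Its other probe gave 2096 and 2061 in the Glis3zf/zf pool and 1965 and 1661 in the WT pool, with log2 ratios of 0.12 and 0.26. The Cd2ap probes thus put the pools apart by different amounts, and neither reached 1.5-fold on an array.

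Synpo encodes synaptopodin, an actin-associated protein of foot processes and dendritic spines. The brightest of its 3 probes gave 3892 and 3502 in the Glis3zf/zf pool, against 3359 and 2983 in the WT pool. Its log2 ratios of 0.17 and 0.24 averaged 0.21, the highest of the 9 genes. The next probe gave 853.7 and 718.5 in the Glis3zf/zf pool and 667.5 and 629.8 in the WT pool, with log2 ratios of 0.33 and 0.11. Both probes had the Glis3zf/zf pool brighter on each array. The last Synpo probe carries another source sequence than the brighter probes. It gave 13.5 and 9.23 in the Glis3zf/zf pool and 11.6 and 9.92 in the WT pool and was not well above background in either. Actn4 encodes an alpha-actinin that crosslinks actin filaments. It gave 17215 and 14992 in the Glis3zf/zf pool, against 14860 and 14060 in the WT pool, and log2 ratios of 0.17 and 0.10.

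Podxl encodes podocalyxin, the charged sialomucin of the apical podocyte surface. Its brighter probe gave 3427 and 2698 in the Glis3zf/zf pool, against 2987 and 2838 in the WT pool, so the pools changed places between the arrays, and the log2 ratios were 0.25 and -0.11. Its other probe gave 177.4 and 170.2 in the Glis3zf/zf pool and 175.2 and 152.3 in the WT pool, with log2 ratios of 0.05 and 0.06. Ptpro encodes a receptor tyrosine phosphatase of the same apical membrane, also known as GLEPP1. Its brighter probe gave 4255 and 3414 in the Glis3zf/zf pool, against 3886 and 3750 in the WT pool, again with the order turned between the arrays, and its log2 ratios were 0.18 and -0.19. On these probes of Podxl and Ptpro, the sample in Cy3 was the brighter one on both arrays. The dimmer Ptpro probe, shown above, gave 109.4 and 104.6 in the Glis3zf/zf pool and 103.7 and 85.0 in the WT pool, and its log2 ratios of -0.05 and 0.23 also had opposite signs. For both genes the difference between the arrays, 0.36 log2 units, was larger than the mean ratio, which was 0.07 for Podxl and -0.01 for Ptpro.

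**Figure D2:**
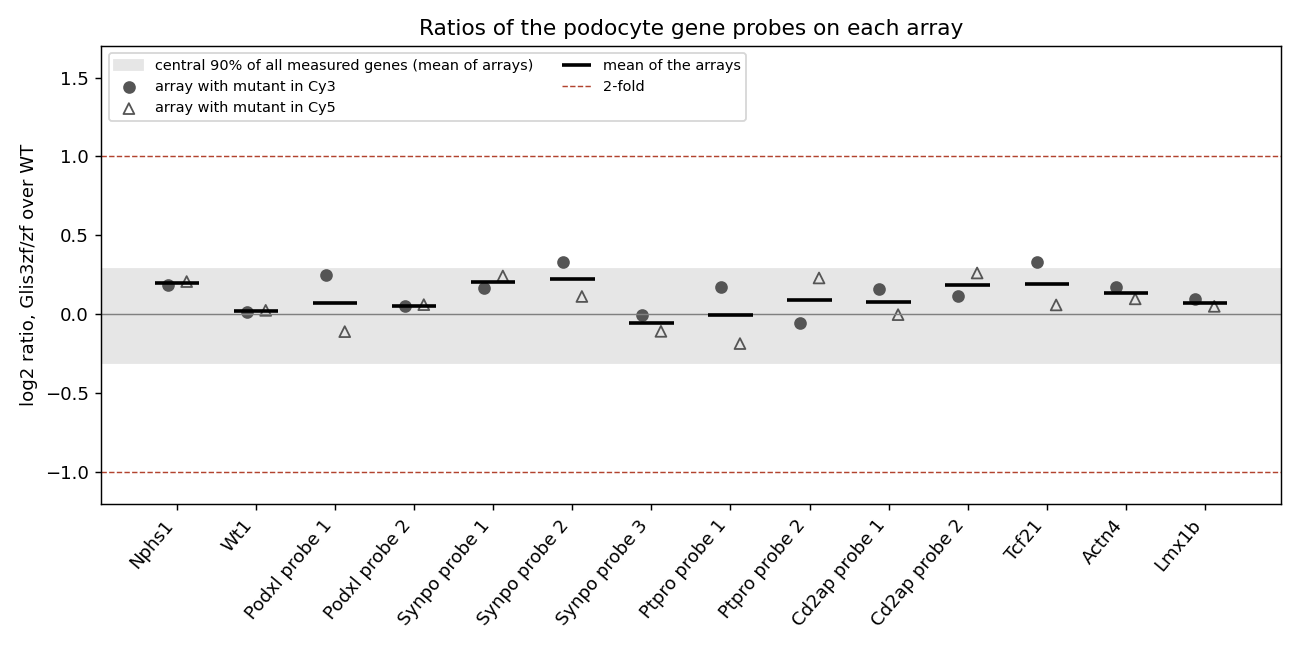
Log2 ratio of Glis3zf/zf over WT for each podocyte gene probe on the mutant-Cy3 (circle) and mutant-Cy5 (triangle) arrays, with their mean (bar); the grey band holds the central 90% of measured genes and the dashed lines mark 2-fold. The mean of every probe lies within the band, and the arrays disagree in sign for the brighter probes of Podxl, Ptpro and Cd2ap and the dimmer probe of Ptpro.

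Of the 3 transcription factors, Wt1 was measured most closely. Wt1 is a zinc finger protein that is kept on in mature podocytes and is also needed in nephron progenitors. Its probe was printed in 10 spots on each array. On the mutant-Cy3 array, spots ran between 4027 and 4420 in the Glis3zf/zf pool, with a median of 4202, and between 4079 and 4522 in the WT pool, with a median of 4235. On the other array they ran between 3634 and 4092 in the Glis3zf/zf pool, with a median of 3805, and between 3566 and 3901 in the WT pool, with a median of 3736. The ranges of the pools overlapped on both arrays. Within a spot, the processed signal was higher for the Glis3zf/zf pool in 5 of 10 spots on the mutant-Cy3 array and in 10 of 10 on the mutant-Cy5 array. After loess the Glis3zf/zf pool was higher in 5 of 10 spots on each. The log2 ratio was 0.02 ± 0.09 (SD, n = 10 spots) on the mutant-Cy3 array and 0.03 ± 0.07 (SD, n = 10 spots) on the mutant-Cy5 array. The scanner software's ratios were -0.00 ± 0.03 and 0.04 ± 0.03 (SD, n = 10 spots) on the same arrays. These spots share the same labelled RNA, so their SD holds no difference between animals. The loess ratio of Wt1 was smaller than that SD on each array, while the scanner ratio was larger than it on the mutant-Cy5 array.

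**Figure D3:**
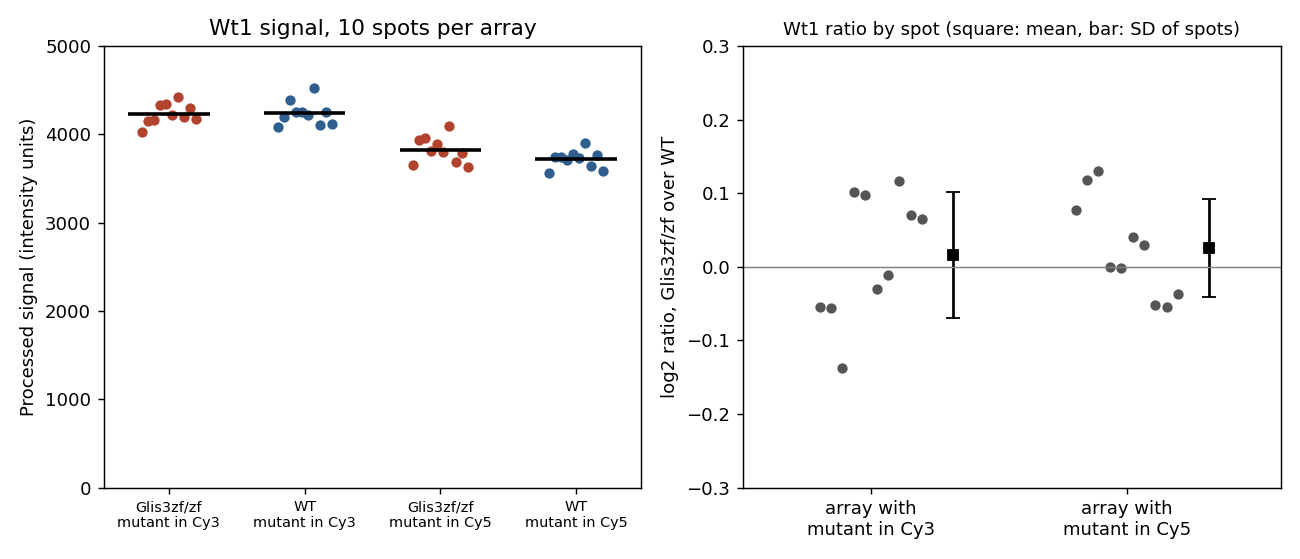
Processed signal (left, intensity units) and log2 ratio of Glis3zf/zf over WT (right) of the 10 Wt1 spots on each array, with the mean as a line on the left and the mean and SD of the spots as a square and bar on the right. The ranges of the pools overlap on each array, and the loess ratios lie on both sides of 0. On the mutant-Cy5 array the processed signal is higher for the Glis3zf/zf pool in 10 of 10 spots.

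Tcf21, a basic helix-loop-helix factor of podocytes and of kidney stroma, gave 21294 and 17122 in the Glis3zf/zf pool, against 16788 and 16623 in the WT pool. The Glis3zf/zf pool was the brighter on both arrays, clearly so on one and by little on the other, with log2 ratios of 0.33 and 0.06. Lmx1b, a LIM homeodomain factor, gave 32.9 and 24.0 in the Glis3zf/zf pool, against 33.0 and 21.9 in the WT pool. Its log2 ratios were 0.09 and 0.05, and at signals this low the offset added before taking the ratio draws them toward 0. The scanner software's own ratios for Lmx1b were -0.00 and 0.13.

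The error of a single ratio was large beside these values. The scanner software's error for the 13 detected probes was between 0.20 and 0.33 log2 units per array, with a median of 0.20. Of the 26 ratios of a probe on an array that the software gave, 8 were larger than their own error. Synpo's brightest probe alone passed its error on both arrays, at 0.21 and 0.23. Across all measured genes the median difference between the arrays was 0.11 log2 units, and 95% of genes differed by less than 0.32. For the 9 genes this difference ran from 0.01 for Wt1 to 0.36 for Ptpro, with a median of 0.08. The mean ratio was larger than the difference between the arrays for 5 genes: Nphs1, Wt1, Synpo, Actn4 and Lmx1b. With the scanner software's ratios this did not hold for Wt1 (-0.0024 and 0.041) or Lmx1b (-0.0044 and 0.1344). The share of all genes with such a mean ratio is not given here. Over the 195 measured probes that, like that of Wt1, were printed in 8 or more spots, the median difference between the arrays was 0.07.

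**Figure D4:**
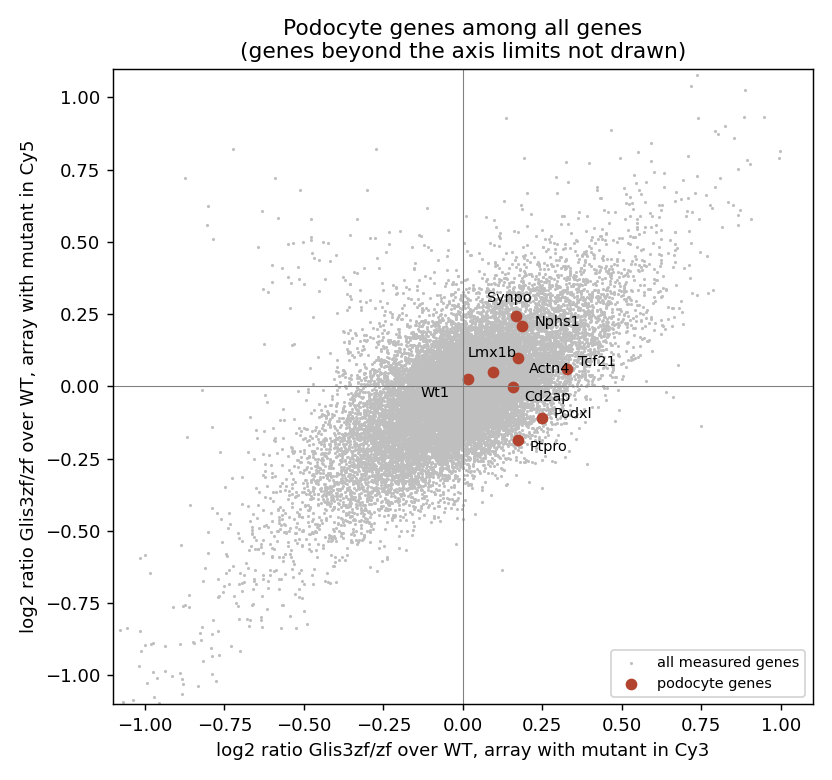
Log2 ratio of Glis3zf/zf over WT on the mutant-Cy5 array against that on the mutant-Cy3 array for all measured genes (grey) and the 9 podocyte genes (red). The podocyte genes lie inside the cloud of all genes, to the right of 0 on the horizontal axis, with Podxl, Ptpro and Cd2ap below 0 on the vertical one.

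Beyond the 9 genes, 58 other podocyte genes in 5 lists were read from the arrays, and 56 of them were measured, all in both pools. None was 1.5-fold apart with the same sign on each array. Both arrays put the Glis3zf/zf pool higher for 23 genes (41.1%, against 30.9% of all genes) and lower for 23 (41.1%, against 37.8%), and the median log2 ratio was 0.00. With median centring 6 were higher (10.7%, against 19.2% of all genes) and 36 lower (64.3%, against 54.4%), at a median of -0.20, where the median of all genes was -0.11. That scaling also turned the medians of the foot process and basement membrane lists, given below, to -0.13 and -0.12. Since the direction of small ratios turns with the scaling, the log2 ratios below are those of loess.

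Among 12 measured partners of nephrin and the slit diaphragm, 2 were higher and 8 lower on both arrays, with a median of -0.10. Of all measured genes, 30.9% were higher and 37.8% lower on both arrays. Kirrel, which encodes Neph1, a nephrin partner across the slit, gave 45.1 and 28.3 in the Glis3zf/zf pool and 37.7 and 24.1 in the WT pool, a log2 ratio of 0.08. As for Lmx1b, the offset draws the ratio toward 0 at signals this low. Fyn, the Src-family kinase that phosphorylates nephrin, gave 474.8 and 480.6 in the Glis3zf/zf pool, against 777.9 and 631.3 in the WT pool. Its log2 ratios of -0.65 and -0.35 put the WT pool above the Glis3zf/zf pool on both arrays. Fyn was named for its ratio, the lowest of this list. Tjp1, the tight junction scaffold ZO-1, stood at -0.42. The adaptors Nck1 and Nck2, which bind phosphorylated nephrin, stood on opposite sides at 0.23 and -0.30. Fyn, Tjp1 and the Nck genes are active in many cell types besides podocytes.

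The foot process list had 9 genes higher and 4 lower on both arrays of 16 measured, with a median of 0.06. That median was 0.17 with the median over all measured probes of a gene. For this and the next list, the shares of all genes were 30.9% higher and 37.8% lower. Inf2, a formin, stood at 0.30, and Dag1, which encodes dystroglycan, at 0.28. The lowest of the list was Vim, added after its value was seen, at -0.18. Ddn encodes dendrin, a partner of nephrin and Cd2ap, and gave 403.5 and 361.1 in the Glis3zf/zf pool, against 338.9 and 274.7 in the WT pool. Its log2 ratio was 0.25 on each array. The list of podocyte regulators had 2 genes higher and 3 lower of 8, with a median of -0.02. Ldb1, the cofactor that Lmx1b binds, stood at 0.37, and Dach1, a nuclear factor of podocytes, at -0.37. Tcf3, a basic helix-loop-helix factor, stood at -0.13, the forkhead factor Foxc2 at 0.07, and Cdkn1c, the cell cycle inhibitor p57, at -0.00.

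Genes of the glomerular basement membrane and of adhesion to it had 7 higher and 3 lower of 11 measured, with a median of 0.13. Here and for the secreted and surface list, the shares of all genes were again 30.9% higher and 37.8% lower. Npnt, which encodes nephronectin, a matrix ligand of integrins, gave 2071 and 2391 in the Glis3zf/zf pool, against 1673 and 1388 in the WT pool. Its mean log2 ratio of 0.52 was the highest of the 56 genes, with 0.33 and 0.71 on the arrays. The laminin chains stood apart from each other, with Lamb2 at 0.34 and Lamc1 at -0.38. Of the collagen IV chains that mature podocytes secrete, Col4a5 stood at -0.34 and Col4a3 at -0.26, while Col4a4, added after its value was seen, stood at 0.08. Itga3, the integrin subunit that holds podocytes to laminin, stood at 0.14. Secreted and surface proteins had 3 genes higher and 5 lower of 9 measured, with a median of -0.14. That median turned to 0.01 with the median over all measured probes of a gene. The aminopeptidase Enpep stood at -0.35, the guidance receptor Robo2 at -0.30, the semaphorin Sema3g at -0.23 and the growth factor Bmp7 at 0.19. Vegfa, the factor by which podocytes support glomerular endothelium, gave 3830 and 3671 in the Glis3zf/zf pool and 4477 and 3768 in the WT pool, a log2 ratio of -0.14.

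**Figure D5:**
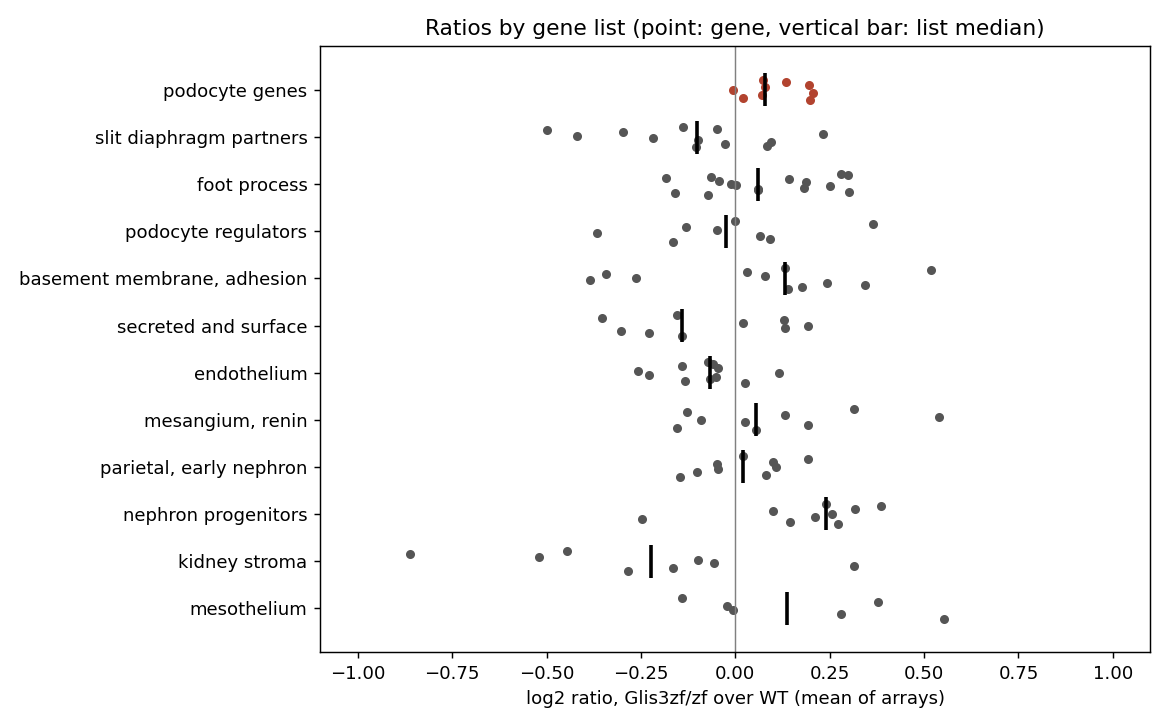
Mean log2 ratio of Glis3zf/zf over WT of each measured gene (point) in the 9 podocyte genes, the other podocyte lists and lists of neighbouring cell types (mesothelium without Wt1), with the median of each list as a vertical bar. The 9 podocyte genes span a narrower range than any other list drawn, and the lowest point belongs to Lum in the kidney stroma list.

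The tissue named on the labels was set against its own markers. Of 10 islet genes, 5 were well above background in every channel. Ins1, Gcg, Ppy and Mafa passed background on both arrays in neither pool, and Ins2 gave mean signals of 88.9 in the Glis3zf/zf pool and 94.7 in the WT pool. Summed over the list, islet signals came to 556.4 in the Glis3zf/zf pool and 579.1 in the WT pool. Of 10 acinar genes, 8 were well above background in every channel, with a sum over the list of 1450 in the Glis3zf/zf pool and 1494 in the WT pool. Of 10 proximal tubule genes of the kidney, 10 were well above background in every channel, in tissue labelled pancreas. Their signals summed to 285767 in the Glis3zf/zf pool and 272828 in the WT pool. In the Glis3zf/zf pool they ran from 149.6 for Slc34a1 to 115370 for Fbp1. These sums are larger than those of both pancreas lists, but each list has its own probes, so they do not compare amounts. Glis3 itself, read by 1 probe, gave 3.88 and 3.39 in the Glis3zf/zf pool and was not well above background there, against 22.1 and 21.5 in the WT pool. Between 72.8% and 76.6% of spots per channel were well above background.

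Lists of the cells around podocytes give the setting of these ratios. Their counts stand beside 30.9% of all genes higher and 37.8% lower on both arrays. Glomerular endothelium had a median log2 ratio of -0.07 over 11 genes and mesangium with renin cells 0.05 over 9, or -0.17 with median centring. Parietal epithelium with early nephron genes stood at 0.02 over 9, or -0.15 with median centring. Nephron progenitors, which also carry Wt1, stood at 0.24 over 9, with 7 higher and 1 lower on both arrays. Crym and Cited1, the brightest of that list, stood at 0.10 and 0.15. Kidney stroma, which shares Tcf21 with podocytes, had a median of -0.22 over 8 genes, with 1 higher and 6 lower on both arrays. Its genes differed, with Col3a1 at -0.52, Col1a1 at -0.10 with opposite signs on the arrays, and Aldh1a2 at 0.32. Tcf21 stood at 0.19. Wt1 is also a mesothelium gene, and the other 6 measured genes of that list ran between -0.14 and 0.55, with Krt19 at 0.38. Somatic cells of the gonad, which also use Wt1, had a median of -0.05 over 8 genes with a summed signal of 1580 in the Glis3zf/zf pool and 1957 in the WT pool. One of them, the receptor gene Amhr2, singled out after its value was seen, was 2-fold lower on both arrays, at -1.34, with mean signals of 90.6 in the Glis3zf/zf pool and 346.8 in the WT pool. Of 7 measured oocyte genes, 3 were well above background in both pools: Padi6 stood at -2.46, Zp3 at -1.92 and Gdf9 at -1.61. The other 4 passed on both arrays through the WT pool alone, so their direction was fixed by the filter. Summed oocyte signals were 319.7 in the Glis3zf/zf pool and 2343 in the WT pool. Adipose genes had a median of -0.87 over 6, 0 higher and 6 lower on both arrays, and leukocyte genes -0.17 over 8, with 1 higher and 6 lower. The part of these other cells in the podocyte gene ratios was not tested.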

How the data were processed

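The authors labelled 500 ng of PND3 total RNA per pool with Cy3 or Cy5, per the labels. The scanner files deposited by the authors hold spot and background intensities, dye-normalized processed signals, and a log10 ratio of Cy5 over Cy3 with its log10 error, per the file headers. These name Feature Extraction 9.1.3.1, whereas the submitters' processing notes give 8.1. The authors also deposited log2 ratios of mutant over WT in a value table, whose scale and direction were found by setting it against the scanner ratios (r = 0.9996 and 0.9997, median 0 for each). Other columns used are spot type and quality flags.

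In R 4.3.3 with limma 3.58.1, background was corrected by normexp (offset 50), log ratios were loess-normalized per array, and the sign was turned on the mutant-Cy3 array. The offset draws dim ratios toward 0. Control spots had weight 0, 18 and 26 outlier spots were left out, no spot was saturated, and spots of a probe were averaged. The step was tested on simulated folds. Signals are processed signals. They are not set against each other between probes as amounts. A gene, named by RefSeq symbol where its accession matched (22951 of 41174 probes), was represented by its brightest probe that both arrays flagged well above background for 1 genotype or both. "Measured" means that such a probe exists. Calls require the fold on both arrays.

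All 9 genes were reported by every probe. From the other podocyte lists, the 4 measured genes with the largest ratio and 8 fixed genes were chosen for naming, of which some are not reported here, and from other lists the brightest, with pancreas, stroma and Glis3 genes singled out after their values were seen. The genes and lists were chosen with earlier results of these data known. The E15.5 intensities deposited by the authors were not used, so the planned limma test at that age was not run.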

Additional observations from a re-analysis of the deposited data

How the results depend on the processing

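Under each of the 9 alternatives run, 0 of the 9 podocyte genes were 2-fold or 1.5-fold apart, and 0 of the other podocyte genes were 2-fold apart. The median log2 ratio of the 9 genes was 0.08. It was -0.11 with median centring, 0.17 on the mutant-Cy3 array alone and 0.13 with the median over a gene's probes. The count of these genes higher in the Glis3zf/zf pool was 6. It was 1 with median centring, 5 with the scanner's processed signals and the deposited value table, 8 with the median over probes, 9 on the mutant-Cy3 array alone and 6 under the other alternatives. The count lower was 0, and 3 with median centring and 3 (Podxl, Ptpro and Cd2ap) on the mutant-Cy5 array alone. The median of the other podocyte genes was 0.00, and -0.20 with median centring. Nphs1, Synpo and Lmx1b kept a positive ratio under each alternative, though Synpo stood at only 0.00 and Nphs1 at 0.03 with median centring. The other 6 genes did not, and the cause was not tested. Over all genes, 40 were 2-fold apart (7 higher, 33 lower), 70 with an offset of 16, and 176 (22 higher, 154 lower) with the scanner's processed signals and with the value table deposited by the authors. No paired analysis was possible because each genotype is 1 pool at PND3. The planned E15.5 alternatives (median centring, pseudocount, filter, variance model, replicate block and leaving out each replicate) were not run, since gene names were not at hand. Signals near background limit what the Lmx1b probe, the Kirrel probe used and the dimmest Synpo probe show.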
